A study of Mus musculus with 62 samples.

Results

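Sost, Dlk2, Ntf3, Cd70, Lypd2 and Dhrs2 are 6 genes of the mouse cerebellum whose RNA was lower in animals carrying a cachectic melanoma. They were chosen by that measured fall in TPM, and as secreted or cell-surface factors, from a table of 47643 gene symbols, and all 6 were among the 14399 symbols with a mean of at least 1 TPM (a level corrected for gene length and scaled to the same total in each library). Cachexia is the wasting of muscle and fat that some tumors bring about. Cerebellum RNA was sequenced in 62 libraries from female mice, given as 2 months old. The animals had received melanoma cells of a cachectic line (CAC) or of a line that does not bring about cachexia (NCAC), or had been mock injected, and the cerebellum was taken after 2, 4, 6 or 8 weeks (wk). With 3 treatments and 4 weeks there were 12 groups, 11 of them with 5 libraries and CAC at 8 wk with 7. The strain is C57BL6/J in the fields of the samples and NCI Ath/nude, an athymic strain, in the design text, so the host strain cannot be stated. The treatment field names cachectic cells for every sample, and the extraction text mentions LLC cells, so groups were taken from the sample descriptions. The replicates are called biological in the labels, but no label ties a library to an animal, and p-values measure the spread between these libraries. Since the CAC comparisons chose the genes, their CAC values are given as a description. Which of the 6 passed the test over all genes there is listed beside the share of all genes, and nothing is read from it. Only the NCAC and mock comparisons are read as tests of the 6 genes.

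The products of the 6 genes act in different systems. Sost encodes sclerostin, a secreted protein that binds the Wnt co-receptors Lrp5 and Lrp6, is held by Lrp4, and restrains Wnt signalling, best known from osteocytes in bone. Dlk2 encodes a transmembrane protein with EGF-like repeats, a relative of Dlk1 that has been linked to the restraint of Notch signalling. Ntf3 encodes neurotrophin-3, a secreted growth factor that acts mainly through the receptor Ntrk3 (TrkC) and is known in the developing cerebellum. Cd70 encodes a membrane ligand of the TNF superfamily whose receptor is Cd27, a co-stimulatory receptor of lymphocytes. Lypd2 encodes a small protein of the Ly6/PLAUR family, whose members are often tied to the membrane by a lipid anchor. Dhrs2 encodes a short-chain dehydrogenase/reductase, an intracellular enzyme, so the description as secreted or surface factors covers the other 5 genes only.

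In GENCODE release M21, whose build GRCm38 is the mm10 build of the table, all 6 are protein-coding genes. Sost (ENSMUSG00000001494.6) lies at chr11:101962458-101967015 on the minus strand and has 2 exons. Dlk2 (ENSMUSG00000047428.14) lies at chr17:46297421-46303271 on the plus strand, and Cd70 (ENSMUSG00000019489.7) at chr17:57145997-57149777 on the minus strand. Ntf3 (ENSMUSG00000049107.13) spans chr6:126101412-126166910 on the minus strand. Lypd2 (ENSMUSG00000022595.7) lies at chr15:74732247-74734329 on the minus strand, and Dhrs2 (ENSMUSG00000022209.12) at chr14:55222007-55241435 on the plus strand.

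The sequence before the first start site is shown for the 4 genes with an entry in the RefSeq promoter table (build GRCm38.p6), so that the regions from which these RNAs start can be compared. Cd70 and Lypd2 had no entry. Each sequence is printed 5′ to 3′ on the gene's own strand, from 250 bases before the RefSeq start, and ends where the GENCODE gene begins. Capitals mark matches to the motifs searched, and the matches do not overlap one another. Ntf3 and Dlk2 have a second window in the table, at another start site, which is not printed. The windows are chr11:101967016-101967265 (minus strand) for Sost, chr17:46297233-46297420 (plus strand) for Dlk2, chr6:126166911-126166994 (minus strand) for Ntf3 and chr14:55221757-55222006 (plus strand) for Dhrs2.
Sost: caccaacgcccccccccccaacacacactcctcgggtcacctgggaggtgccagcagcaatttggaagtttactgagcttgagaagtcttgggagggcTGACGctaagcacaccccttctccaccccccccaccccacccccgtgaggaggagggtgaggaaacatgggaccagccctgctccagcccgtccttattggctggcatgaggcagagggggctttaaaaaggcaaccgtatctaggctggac
Dlk2: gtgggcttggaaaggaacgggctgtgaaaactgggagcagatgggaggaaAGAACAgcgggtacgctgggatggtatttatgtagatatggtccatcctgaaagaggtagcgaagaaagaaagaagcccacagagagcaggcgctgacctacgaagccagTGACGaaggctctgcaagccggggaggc
Ntf3: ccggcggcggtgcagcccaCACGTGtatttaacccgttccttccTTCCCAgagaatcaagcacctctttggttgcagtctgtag
Dhrs2: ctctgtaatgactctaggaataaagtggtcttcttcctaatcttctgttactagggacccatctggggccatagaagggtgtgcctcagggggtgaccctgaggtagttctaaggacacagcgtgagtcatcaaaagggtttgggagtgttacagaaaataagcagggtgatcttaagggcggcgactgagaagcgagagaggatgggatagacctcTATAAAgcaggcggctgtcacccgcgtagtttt

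6 short motifs were searched on both strands of the 250 bases before each start. No motif was found in the windows of all 4 genes. The cyclic-AMP response element half-site TGACG was present before Sost and Dlk2, and in 17.8% of the 32851 windows of the same length in the table. The glucocorticoid receptor half-site AGAACA was found before Dlk2 alone of the 4 genes, against 16.1% of all windows. The E-box CACGTG, present in 6.02% of all windows, and the RBPJ core TGGGAA (here as TTCCCA), present in 21.6%, stood before Ntf3. A TATA box, TATAAA, stood before Dhrs2 and in 12.4% of all windows. The TCF/LEF core CTTTGA was found only in a second Ntf3 window, at another start site, and in 13.8% of all windows. These matches describe the letters and were not tested as binding sites.

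In mock animals the 6 genes were low to moderate. Over the 20 mock libraries the mean level was 8.00 TPM for Cd70, 7.12 TPM for Ntf3, 5.00 TPM for Sost, 3.42 TPM for Dlk2, 1.50 TPM for Lypd2 and 1.46 TPM for Dhrs2. None of the 6 was at 0 in any of the 62 libraries. The TPM table keeps no read depth, so no counting error can be given, and it weighs most on Lypd2 and Dhrs2, whose means over all libraries lay at the 3.36 and 3.04 percentile of the tested genes. In a bulk sample, fewer cells that make an RNA and less RNA per cell cannot be told apart.

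**Figure D1:**
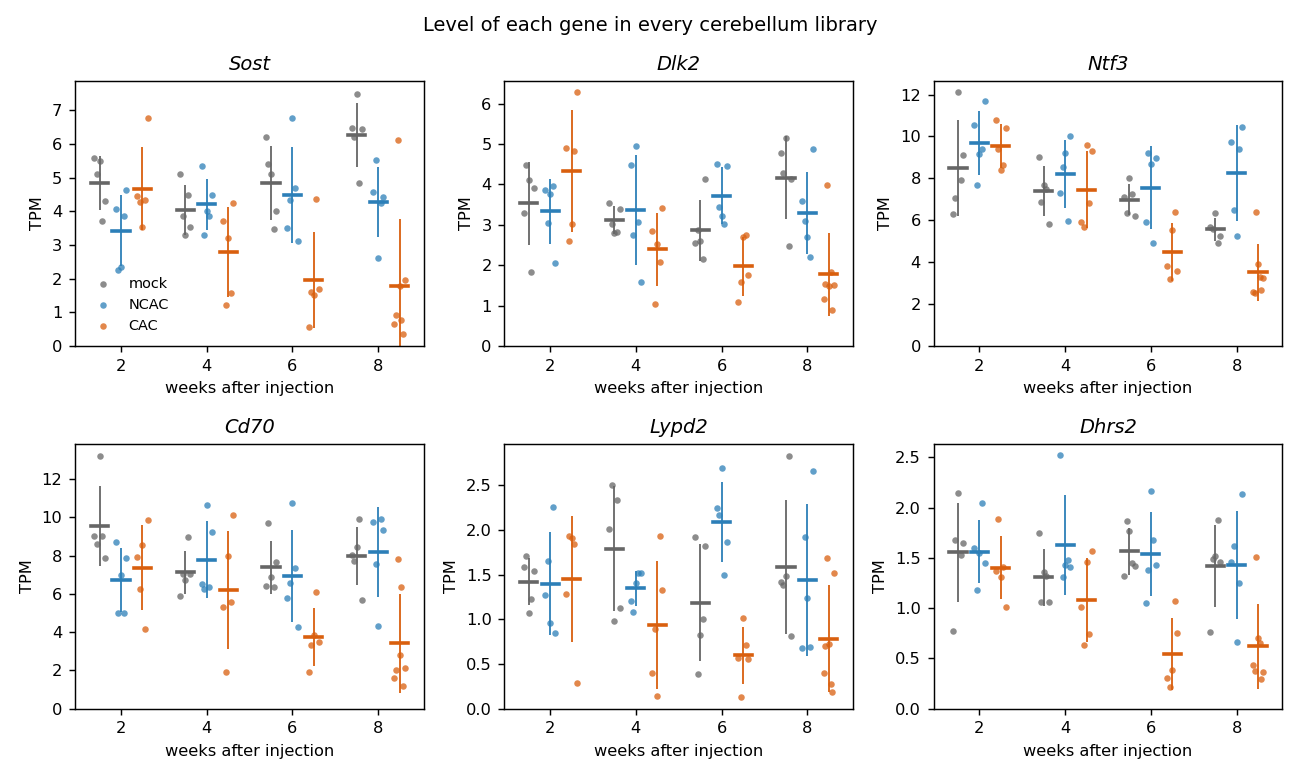
TPM of the 6 genes (vertical axis, from 0) by week after injection (horizontal axis). Each point is 1 library, horizontal bars are group means and vertical lines ±1 SD, cut at 0. At 6 and 8 wk the CAC mean (orange) lies below the mock (gray) and NCAC (blue) means in every panel. The same CAC library is the highest at 8 wk in each panel, and for Cd70 and Lypd2 another also lies inside the mock range.

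Sost, the Wnt antagonist, showed the widest gap. At 8 wk its level in the 5 mock libraries was 6.46, 6.19, 7.48, 4.83 and 6.43 TPM, a mean of 6.28 ± 0.950 (SD, n = 5). In the 7 CAC libraries of that week it ranged from 0.363 to 6.10 TPM with a median of 0.920, a mean of 1.79 ± 1.99 (SD, n = 7), or 28.5% of the mock mean. In 6 of the 7 CAC libraries Sost was below every mock library, and replicate 3, at 6.10 TPM, was inside the mock range. On the log2(TPM + 1) scale, which understates changes of low genes, the difference was -1.60 ± 0.247 (SE), the seventh lowest of all tested genes (rank 7 of 14399). At 6 wk CAC held 0.560, 1.62, 1.53, 4.36 and 1.71 TPM against 6.21, 5.41, 5.09, 3.47 and 3.99 in mock, so that 4 of 5 CAC libraries were below every mock library. At 4 wk the CAC values spread from 1.22 to 4.25 TPM across the mock range of 3.29 to 5.11, and at 2 wk the means were 4.67 in CAC and 4.84 in mock. The gap at 8 wk also reflects the mock group, whose mean of 6.28 TPM was the highest of the 12 groups and 1.64 SD above the next one. NCAC at 8 wk held 4.56, 5.52, 2.62, 4.26 and 4.42 TPM, and CAC was at 41.9% of that mean.

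Dlk2, the Dlk1 relative, was also lowest in CAC at 8 wk. At 2 wk its CAC mean of 4.33 TPM was the highest of the 12 groups and above the mock mean of 3.53, a log2 difference of 0.22 ± 0.219 (SE), and at 4 wk the means were 2.39 TPM in CAC and 3.12 in mock. At 8 wk mock held 4.78, 4.27, 5.15, 2.47 and 4.15 TPM (4.16 ± 1.03, SD, n = 5). CAC ranged from 0.886 to 3.98 TPM with a median of 1.51 (1.77 ± 1.02, SD, n = 7), 42.6% of mock, a log2 difference of -0.94 ± 0.203 (SE). Again 6 of 7 CAC libraries lay below all mock libraries. At 6 wk the CAC values of 1.09, 1.58, 2.71, 2.75 and 1.76 TPM partly overlapped the mock values of 2.55, 2.86, 2.60, 2.16 and 4.13. They lay wholly below the NCAC values of that week, which were 4.50, 3.44, 3.21, 3.02 and 4.45 TPM, a separation seen in 1.15% of all genes. Neighbours in the order of the 12 Dlk2 group means differed by less than 1 SD in 11 of 11 steps, so no single step in that order stands out from the spread.

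Ntf3, the neurotrophin, was the most abundant of the 6 in NCAC animals. Its mock mean was lower in each later week, though the slope did not pass the test (limma adjusted p = 0.375). The mock mean was 8.51, 7.39, 6.99 and 5.56 TPM at 2, 4, 6 and 8 wk, while NCAC stood at 9.70, 8.21, 7.55 and 8.26 TPM. The CAC mean was 9.53, 7.47, 4.50 and 3.52 TPM in the same weeks. At 8 wk the mock libraries held 5.68, 5.60, 6.35, 4.91 and 5.27 TPM (5.56 ± 0.534, SD, n = 5), and CAC ranged from 2.55 to 6.41 with a median of 3.23 (3.52 ± 1.36, SD, n = 7). All CAC libraries but replicate 3 were below all mock and all NCAC libraries. The CAC minus mock log2 difference was -0.58 ± 0.163 (SE) at 8 wk, and the CAC minus NCAC difference was -1.04 ± 0.163 (SE), the 2 sharing the CAC libraries. At 6 wk CAC held 3.82, 3.19, 5.53, 6.38 and 3.56 TPM against 7.11, 6.37, 8.04, 7.24 and 6.20 in mock, and replicate 4 was the 1 CAC library inside the mock range.

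Cd70, the TNF-family ligand, had the widest spread within CAC. At 8 wk mock held 8.02, 7.71, 8.47, 9.89 and 5.69 TPM (7.96 ± 1.52, SD, n = 5). CAC ranged from 1.19 to 7.83 TPM with a median of 2.12 (3.42 ± 2.59, SD, n = 7), 43.0% of mock and a log2 difference of -1.19 ± 0.259 (SE). In 5 of 7 CAC libraries Cd70 was below every mock library, and replicates 3 and 5 (7.83 and 6.36 TPM) were inside the mock range. At 6 wk the CAC values of 1.95, 3.31, 3.87, 6.09 and 3.51 TPM lay below all mock values, which were 6.41, 9.69, 6.86, 6.34 and 7.66. At 4 wk CAC ran from 1.91 to 10.1 TPM and mock from 5.87 to 8.97, so the CAC group extended past mock on both sides. Its log2 difference of -0.30 in that week became -0.01 without CAC replicate 2.

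Lypd2 and Dhrs2 were near the lower limit of the tested genes. At 8 wk Lypd2 was 1.42, 1.39, 1.48, 2.83 and 0.815 TPM in mock and ranged from 0.184 to 1.69 TPM in CAC, median 0.700, 49.5% of the mock mean. Its 6 wk values in CAC (0.568, 0.137, 1.02, 0.713 and 0.562 TPM) overlapped mock (1.92, 0.388, 0.823, 1.00 and 1.82) and lay below all of NCAC (2.24, 2.17, 2.70, 1.50 and 1.86). Dhrs2, the reductase, was 0.761, 1.48, 1.51, 1.88 and 1.45 TPM in mock at 8 wk and ranged from 0.295 to 1.51 TPM in CAC, median 0.433, 43.7% of the mock mean. At 6 wk its CAC values of 0.304, 0.220, 0.389, 1.07 and 0.752 TPM were below all mock values of 1.32, 1.87, 1.76, 1.45 and 1.42. The log2 differences at 8 wk, -0.56 ± 0.223 (SE) for Lypd2 and -0.60 ± 0.151 (SE) for Dhrs2, are compressed by the added 1 TPM. With an added 0.1 TPM they were -1.12 and -1.19. Lypd2 and Dhrs2 were lowest in CAC at 6 wk, and the other 4 genes in CAC at 8 wk. For each of the 6 genes these 2 CAC means differed by less than 1 SD, from 0.0947 SD for Sost to 0.710 SD for Ntf3.

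The log2 differences from mock were lowest at 6 or 8 wk for 5 of the 6 genes, while Lypd2 was lowest at 4 wk (-0.57, against -0.42 at 6 wk and -0.56 at 8 wk). The log2 difference was negative for 4 of 6 genes at 2 wk, where 40.6% of all tested genes were negative. It was negative for 6 of 6 at 4, 6 and 8 wk, against 43.2%, 39.7% and 43.3% of all tested genes. In the limma fit over all genes, at a Benjamini-Hochberg adjusted p under 0.05, none of the 6 was called at 2 or 4 wk, when 0% of all genes were called lower (697 and 1149 genes had an unadjusted p under 0.05). At 6 wk Sost and Dhrs2 were called lower, against 0.313% of all genes, and at 8 wk 5 of 6 were, Lypd2 being the exception, against 7.34%. Against NCAC, 5 of 6 were called at 6 wk (all but Cd70, against 1.99% of all genes) and 5 of 6 at 8 wk (all but Lypd2, against 4.01%). All CAC libraries lay below all mock libraries for Cd70 and Dhrs2 at 6 wk, against 0.542% of genes, and for none of the 6 at 8 wk, against 1.25%. The shares over all genes depend on the scaling and on the libraries in the fit. Against mock, 45 genes were called lower and 203 higher at 6 wk, and 95 and 113 under median-of-ratios scaling; at 8 wk these were 1057 and 1933, and 1497 and 1520. Against NCAC they were 286 and 1075 at 6 wk, and 622 and 443 under that scaling, and at 8 wk 578 and 1117, and 897 and 825. A fit of the compared groups alone called 0 genes against mock at 6 wk, and 487 lower and 1161 higher at 8 wk. Against NCAC it called 75 lower and 273 higher at 6 wk, and 184 and 501 at 8 wk. Because these contrasts chose the genes, nothing is read from the counts.

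**Figure D2:**
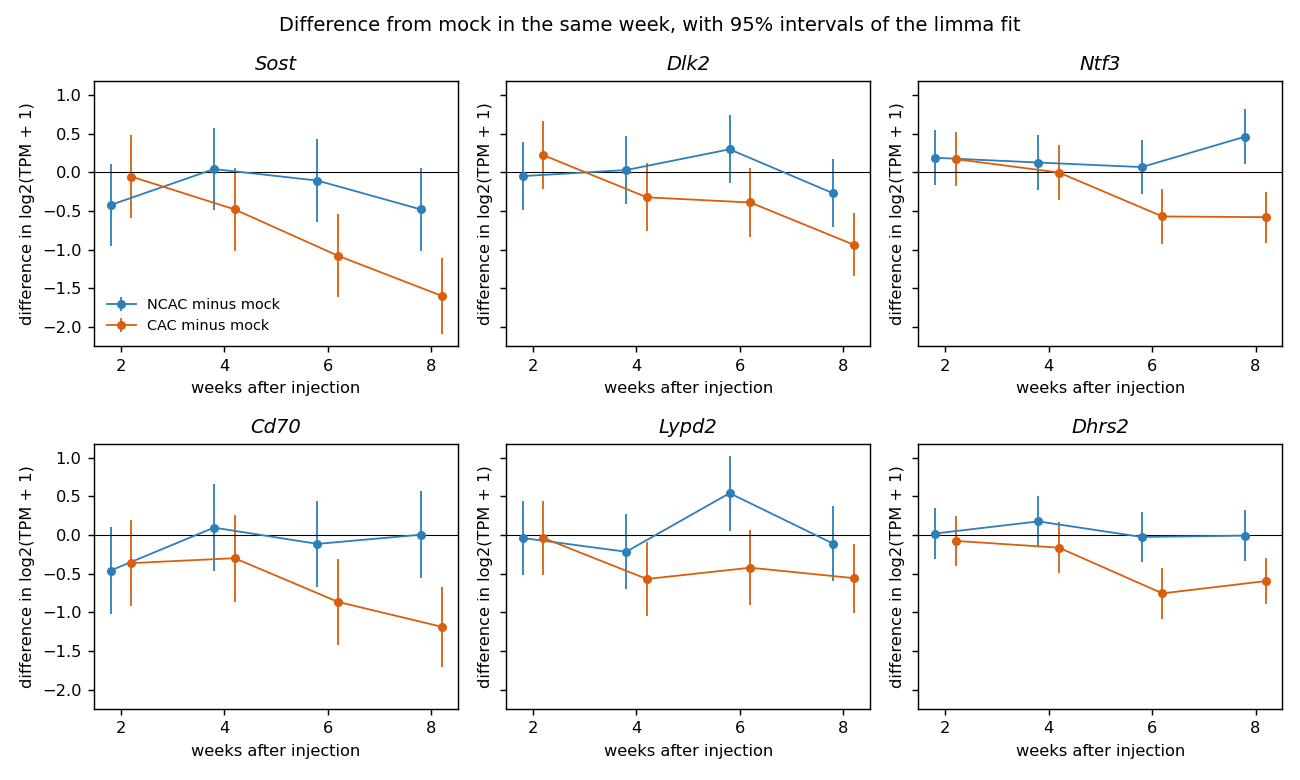
Difference from mock in log2(TPM + 1) (vertical axis) by week (horizontal axis), with 95% intervals of the limma fit. CAC minus mock (orange) reaches -1.60 for Sost at 8 wk, and NCAC minus mock (blue) stays between -0.48 and 0.54 for the 6 genes.

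NCAC animals carried a melanoma as well, and for them the comparison with mock was not part of the choice of genes, although it shares the mock libraries with it. In the limma fit none of the 6 genes differed between NCAC and mock at an adjusted p under 0.05 in any week or with the weeks pooled. Over all genes, 2 were called higher at 2 wk (0.0139%) and none in the other weeks, while 780, 306, 1202 and 1038 genes had an unadjusted p under 0.05 at 2, 4, 6 and 8 wk, and 573 with the weeks pooled, where none was called. The 24 differences of the 6 genes in the 4 weeks ran from -0.48 (Sost at 8 wk) to 0.54 (Lypd2 at 6 wk). The intervals of these differences were up to 0.56 wide on either side (Cd70), so a moderate change in NCAC was not detectable here.

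3 of these tests had an unadjusted limma p under 0.05, none of which held after adjustment. Ntf3 was higher in NCAC than in mock at 8 wk by 0.46 ± 0.176 (SE; limma adjusted p = 0.62), with NCAC libraries at 9.76, 6.49, 5.23, 9.39 and 10.4 TPM, of which 4 of 5 were above every mock library. Pooled over weeks the Ntf3 difference was 0.21 ± 0.088 (SE; limma adjusted p = 1.00), with a 95% interval of 0.03 to 0.39. Lypd2 was higher in NCAC at 6 wk by 0.54 ± 0.241 (SE; limma adjusted p = 0.588). Sost was lower in NCAC at 8 wk by a log2 difference of -0.48 ± 0.266 (SE; limma adjusted p = 0.712), with 4 of 5 NCAC libraries below every mock library. Its pooled difference was -0.24 ± 0.133 (SE; limma adjusted p = 1.00), with a 95% interval of -0.51 to 0.03. The counts of libraries at 8 wk depend on the mock group of that week. Its mean was the lowest of the mock groups for Ntf3 (5.56 TPM) and the highest of the 12 groups for Sost (6.28 TPM). The share of all genes with such a count was not taken, so nothing is read from these counts.

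Of the 6, Ntf3 had the steepest slope over the weeks in mock. Its slope there was -0.08 ± 0.028 (SE) log2 units per week (limma adjusted p = 0.375), and within NCAC -0.04 ± 0.028. No gene of the 6 had a slope past an adjusted p of 0.05 in mock, where 0.0278% of all genes were called lower, or in NCAC, where 0.0347% were. 1316 and 2161 genes had an unadjusted p under 0.05 for these slopes. Within CAC the slopes, given as a description, were -0.22 per week for Ntf3, -0.20 for Sost, -0.18 for Cd70, -0.15 for Dlk2, -0.11 for Dhrs2 and -0.08 for Lypd2.

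The libraries of a CAC group differed widely, and at 8 wk the 6 genes were all highest in the same one. In that week replicate 3 was the highest of the 7 libraries for all 6 genes: Sost 6.10, Dlk2 3.98, Ntf3 6.41, Cd70 7.83, Lypd2 1.69 and Dhrs2 1.51 TPM. All but Ntf3 were inside the mock range there, and Ntf3 was just above its upper end of 6.35 TPM. Of the other 6 libraries, 4 had all 6 genes below every mock library and 2 had 5 of 6. Without replicate 3 the CAC mean at 8 wk was 17.1% of mock for Sost, 33.7% for Dlk2, 54.7% for Ntf3, 33.8% for Cd70, 40.0% for Lypd2 and 33.3% for Dhrs2. The log2 differences without it were -1.86 for Sost, -1.09 for Dlk2, -0.71 for Ntf3, -1.38 for Cd70, -0.67 for Lypd2 and -0.71 for Dhrs2. At 6 wk replicate 4 was highest for 5 of the 6 genes, and at 4 wk replicate 2 was lowest for 5 of 6. Lypd2 was the exception at 4 wk, lowest in replicate 3 and highest in replicate 4. At 2 wk the genes had no common order: replicate 5 was highest for 3 of them and lowest for 2, Lypd2 and Dhrs2.

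Readouts outside the 6 genes varied between the same libraries. Fkbp5, a co-chaperone gene induced by glucocorticoids, was at 7.14 TPM in CAC replicate 3 at 8 wk, within the mock range of 4.26 to 7.82, and between 18.6 and 42.0 TPM in the other 6. Lrg1, which encodes a secreted glycoprotein known from the acute-phase response, was at 6.57 TPM in that library, between 14.8 and 22.9 in the other 6 and at most 2.80 in mock. At 4 wk CAC replicate 2, in which all 6 genes were below every mock library, had the highest Fkbp5 (30.5 TPM) and Lrg1 (10.3 TPM) of its group. Replicate 5 of that week, in which none of the 6 was below every mock library, had the lowest (3.80 and 2.81 TPM). The order was less regular in other weeks. At 6 wk CAC replicate 2 had all 6 genes below every mock library, with Fkbp5 at 17.4 and Lrg1 at 9.34 TPM. Replicate 1, with 5 of 6, had the highest of that week (40.6 and 25.6 TPM). At 2 wk CAC replicate 3 had Lrg1 at 6.64 TPM with 1 of 6 genes below every mock library. In NCAC the library with the highest Fkbp5 was also lowest for 4 of 6 genes at 2, 4 and 8 wk. These were replicates 2, 2 and 3, with Fkbp5 at 14.4, 11.5 and 8.76 TPM and Lrg1 at 1.52, 2.12 and 2.63 TPM. At 6 wk NCAC replicate 5 had the highest Fkbp5 (8.96 TPM) and was lowest for 2 of 6. Replicate 4, at 7.16 TPM, was lowest for 3 of 6. A relation of the 6 genes with Fkbp5 or Lrg1 was not tested. The count of genes below every mock library of the week had a median of 1 of 6 per CAC library at 2 wk, 3 at 4 wk, 5 at 6 wk and 6 at 8 wk. In NCAC libraries that median was 1, 0, 1 and 2. No such count was made over all tested genes, so the level to be met without any difference is not given. The CAC comparison also chose the genes, and nothing is read from these counts. No label says how far cachexia had progressed in any animal, and its part in these differences was not tested.

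**Figure D3:**
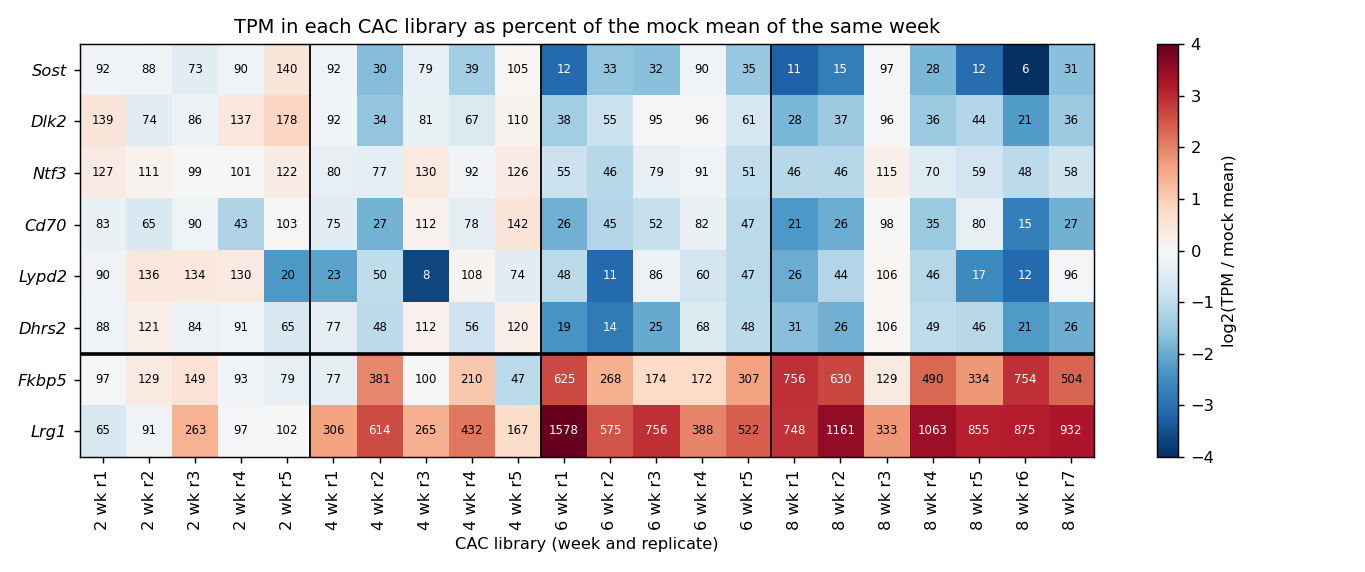
TPM in each CAC library (columns, by week and replicate) as percent of the mock mean of the same week, for the 6 genes and, below the line, Fkbp5 and Lrg1. Cell numbers are percentages and colors their log2 ratio. The columns with the lowest values for the 6 genes tend to hold the highest Fkbp5 and Lrg1. Replicate 3 at 8 wk is near 100 for all 6 genes. NCAC libraries are not drawn.

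Across all 62 libraries the 15 pairs among the 6 genes had Pearson correlations of log2(TPM + 1) from 0.353 to 0.808, with a median of 0.644. With the group means removed the median was 0.426, the pairs with Lypd2 running from 0.027 to 0.203. Over the 40 mock and NCAC libraries alone the median was 0.135, with 12 of 15 pairs positive. There the pairs among Sost, Ntf3, Cd70 and Dhrs2 ran from 0.321 to 0.474. Those with Dlk2 or Lypd2 ran from -0.064 to 0.178. Sost and Cd70 formed the closest pair, at 0.808 over all libraries. The points share the total of each TPM library and the groups, and the choice of genes favors a shared pattern, so the values describe these libraries only.

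For each gene the 3 tested genes with the most similar pattern were listed by the same correlation over 62 libraries. Nearest to Sost were Tnc (0.869), which encodes tenascin-C of the extracellular matrix, Fabp7 (0.860), a fatty acid binding protein of Bergmann glia and astrocytes, and Serpinb1a (0.846), a protease inhibitor. With group means removed these were 0.732, 0.764 and 0.701. Tnc was also nearest to Cd70 (0.879), followed by Eno1 (0.860), a glycolytic enzyme with near-identical copies in the genome, and Prex1 (0.858). Ntf3 was nearest to Marcks (0.910), Nrep (0.861) and Zeb2 (0.844), and Marcks kept 0.760 with group means removed. Dhrs2 was nearest to Ednrb (0.840), the endothelin receptor B, Ptn (0.839), which encodes pleiotrophin, and Lxn (0.822). For Dlk2, Hn1 (0.771) and Adamtsl4 (0.766) were among the 3 nearest. Lypd2 had the least similar neighbours, Fam114a1 (0.690), Pltp (0.619) and Rcn3 (0.602).

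The cell composition of the samples was checked with marker lists. Markers of granule cells, Purkinje cells and Bergmann glia were high in every group, as the cerebellum label requires, with summed levels of 3504 to 4074 TPM for granule cells in CAC at 8 wk and 3554 to 4140 TPM in mock. Beside the lower level of the 6 genes at 8 wk, all 6 oligodendrocyte markers fell in CAC against mock in the limma fit (adjusted p under 0.05), with summed levels of 1513 to 2002 TPM in CAC and 2018 to 2734 in mock. Of 6 microglia markers, 3 fell (P2ry12, Cx3cr1 and Aif1), with sums of 121.5 to 150.9 TPM in CAC and 131.1 to 205.9 in mock. Of 8 Bergmann glia and astrocyte markers, Aqp4 and Fabp7 fell and Gdf10 and Aldoc rose, with sums of 3370 to 3808 TPM in CAC and 3065 to 3406 in mock. Of 5 arterial endothelium markers 1 fell, Gkn3, with sums of 29.0 to 47.4 TPM in CAC and 44.1 to 48.8 in mock. Without mock replicate 1 the calls of Mbp, Mog and Cnp among the oligodendrocyte markers were lost (adjusted p from 0.0514 to 0.0873), and without mock replicate 5 that of Cx3cr1 (adjusted p = 0.0521). In the other lists single markers were called: Slc17a7 of granule cells (-0.15), Car8 of Purkinje cells (-0.17), Cck of inhibitory interneurons (-0.34) and Lum of fibroblasts (-0.61) were lower, and Pvalb of inhibitory interneurons (0.14) and Slco1a4 of endothelium (0.31) were higher. The Slc17a7 call was lost in 9 of 12 refits that leave out 1 library (adjusted p from 0.0561 to 0.129). No marker of choroid plexus or mural cells was called, and the summed choroid plexus level spread widely, from 2356 to 6980 TPM in CAC and 2806 to 5561 TPM in mock. The part of these cell types in the level of the 6 genes was not tested. CAC replicate 3, high for all 6 genes, had an oligodendrocyte sum of 1950 TPM, below the mock range. Its arterial endothelium sum of 47.4 TPM was the highest of the CAC libraries at 8 wk and inside the mock range. It was also the highest of them for granule cells (4074 TPM), mural cells (269 TPM) and meninges and fibroblasts (234 TPM). For inhibitory interneurons (1858 TPM) and lymphocytes (5.88 TPM) it was the lowest. The Gkn3 level of replicate 3 was 7.70 TPM against 0.856 to 3.12 TPM in the other 6.

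Cd70 is known from activated lymphocytes and other immune cells, so lymphocyte markers are given beside it. Cd3e, Cd3g and Cd8a had a median of 0 in CAC at 8 wk, and the mean of Cd27, the Cd70 receptor, was 0.019 TPM over all libraries, below the level tested. The lymphocyte sum was 5.88 to 9.90 TPM in CAC and 6.19 to 545 TPM in mock at 8 wk. The mock library with 545 TPM, replicate 5, owed it to the immunoglobulin genes, whose copies share reads, and it had the lowest Cd70 of its group (5.69 TPM). Both tested lymphocyte markers, Ighm and Igkc, fell in CAC at 8 wk (limma adjusted p = 0.041 and 0.00823). Without mock replicate 5 the adjusted p was 0.699 and 0.134. The Ighm call was lost in 7 of 12 refits that leave out 1 library: those of CAC replicates 2, 3, 4, 6 and 7 and of mock replicates 1 and 5. Of 6 melanocytic markers Mitf, which other cells also express, had the highest mean, 7.22 TPM, and did not pass the test (0.14, limma adjusted p = 0.169). The sum of the 6 was 8.55 to 10.04 TPM in CAC and 8.52 to 9.69 TPM in mock. Mlana and Tyr had a median of 0 in all 3 groups at 8 wk, and Pmel, at a mean of 1.10 TPM over all libraries, was lower in CAC than in mock at 8 wk (log2 difference -0.40, limma adjusted p = 0.00668).

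The genes that work with the 6 were taken as 9 lists by function, with 206 genes besides the 6. The table held 204 of them, and 144 were tested. At 8 wk 14 of the 144 fell and 19 rose in CAC against mock (limma, adjusted p under 0.05), 9.72% and 13.2%, beside 7.34% and 13.4% of all tested genes. Under median-of-ratios scaling 21 fell and 18 rose, beside 1497 and 1520 of all 14399 tested genes under that scaling. Their median log2 difference was -0.03 and that of all tested genes 0.02. At 6 wk none fell and 6 rose, beside 0.313% and 1.41% of all genes, and 31 had an unadjusted p under 0.05. None was called at 2 or 4 wk, when 9 and 13 had an unadjusted p under 0.05. Against NCAC at 8 wk, 8 fell and 15 rose, beside 4.01% and 7.76% of all genes. At 8 wk the related genes ran from -0.69 (Tnfsf10) to 0.83 (Ly6c1) against mock, and the 6 chosen genes, picked for their fall, from -1.60 to -0.56.

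**Figure D4:**
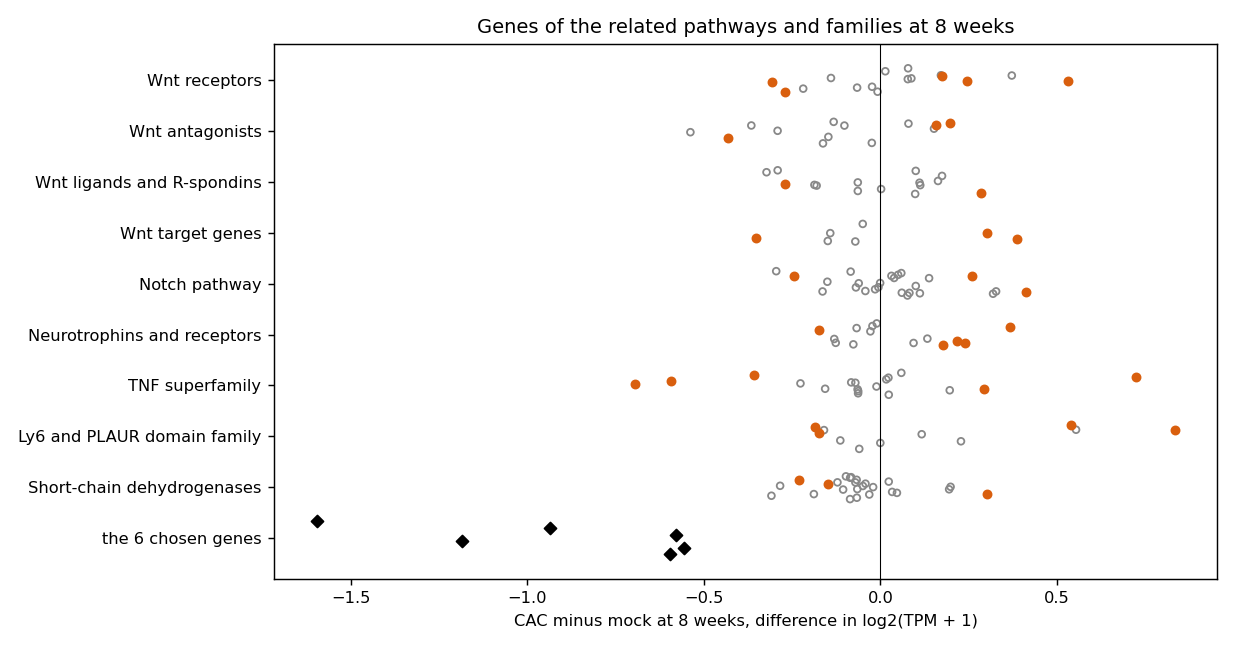
CAC minus mock at 8 wk in log2(TPM + 1) (horizontal axis) for the tested genes of the 9 lists and the 6 chosen genes (rows; vertical scatter within a row has no meaning). Filled circles passed the limma test at an adjusted p under 0.05 and open circles did not. Black diamonds are the 6 chosen genes, drawn without regard to the test. The lists scatter on both sides of 0, and the diamonds lie between -1.60 and -0.56.

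In the Wnt system, the setting of Sost, receptors and antagonists changed in both directions. Of 16 tested Wnt receptors 3 rose and 2 fell at 8 wk. The co-receptor Lrp5, a binding partner of sclerostin, was at 4.53 to 4.78 TPM in mock and 4.99 to 6.49 in CAC. Its log2 rise was 0.25 ± 0.076 (SE, limma adjusted p = 0.0158). Its partner Lrp6 was at 27.2 to 30.8 TPM in mock and 30.8 to 35.0 in CAC, a rise of 0.17 ± 0.054 (adjusted p = 0.0163). Lrp4, which holds sclerostin at the cell surface, had a difference of -0.02 ± 0.076 (adjusted p = 0.863). The receptor Fzd1 rose by 0.53 ± 0.148 (adjusted p = 0.00715), from 48.4 ± 8.60 TPM in mock (SD, n = 5) to 70.4 ± 10.9 in CAC (SD, n = 7), and Fzd8 was lower by -0.31 (adjusted p = 0.00746). Of 13 antagonists Notum, an enzyme that inactivates Wnt ligands, was lower by -0.43 ± 0.121 (adjusted p = 0.00744), and Znrf3 and Kremen1 were higher by 0.20 and 0.16. Sostdc1, the closest relative of Sost, differed by -0.54 ± 0.800 (adjusted p = 0.681), a spread too wide to compare it with Sost.

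Wnt ligands and target genes showed no common direction. Of 15 ligands and R-spondins Wnt3 rose by 0.28 (limma adjusted p = 8.87e-04) and Wnt9a was lower by -0.27 (adjusted p = 0.0234). Of 7 target genes Nkd1 rose by 0.39 ± 0.086 (adjusted p = 8.38e-04) and Bambi by 0.30 (adjusted p = 0.0322), and Tcf7 was lower by -0.35 (adjusted p = 0.00518). Axin2, the target most often used to read Wnt activity, was at 11.9 to 17.0 TPM in mock and 11.9 to 14.1 in CAC, a difference of -0.07 ± 0.073 (adjusted p = 0.529).

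In the Notch pathway, to which Dlk2 is linked, 2 of 25 tested genes rose and 1 fell at 8 wk. Lfng, a glycosyltransferase that modifies Notch receptors, was at 26.3 to 30.5 TPM in mock and 35.0 to 44.4 in CAC, a rise of 0.41 ± 0.114 (SE; limma adjusted p = 0.00689). Adam17, a protease that cleaves Notch and many other surface proteins, fell from 13.7 to 15.1 TPM in mock to 10.8 to 13.7 in CAC, a difference of -0.25 ± 0.052 (adjusted p = 4.77e-04). The co-activator Maml2 rose by 0.26 (adjusted p = 0.0391). Dlk1, the nearest relative of Dlk2, was at 0.799 to 5.65 TPM in mock and 2.44 to 8.41 in CAC, a difference of 0.33 ± 0.324 (adjusted p = 0.508), in the opposite direction to Dlk2 but within its spread. Notch1 (0.08), Hes1 (0.08) and Hes5 (0.11) did not pass the test, with adjusted p of 0.304, 0.658 and 0.644.

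Of the 14 tested neurotrophins, receptors and partners, 4 rose and 1 fell at 8 wk. Ntrk3, the main receptor of neurotrophin-3, was at 40.4 to 49.5 TPM in mock and 49.5 to 66.4 in CAC, a rise of 0.37 ± 0.082 (SE; limma adjusted p = 9.77e-04). Ntrk2, the receptor of BDNF, rose by 0.22 ± 0.038 (adjusted p = 5.29e-05), from 104 to 111 TPM in mock to 112 to 133 in CAC, and it also rose at 6 wk by 0.17 (adjusted p = 0.0221). Furin, a protease that processes neurotrophin precursors, rose by 0.24 (adjusted p = 5.16e-04), and the sorting receptor Sort1 was lower by -0.18 ± 0.033 (adjusted p = 1.62e-04). Against NCAC the same 4 genes were called as well, with differences of 0.27 for Ntrk3, 0.21 for Ntrk2, 0.16 for Furin and -0.16 for Sort1, on the same CAC libraries. Bdnf, the related neurotrophin, differed by -0.13 ± 0.167 (adjusted p = 0.625). The receptors Ntrk2 and Ntrk3 thus rose in the comparison in which Ntf3, chosen for its fall, was lower. In that comparison 13.4% of all tested genes were called higher, and a relation between Ntf3 and the receptors was not tested.

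Of 18 tested TNF-superfamily ligands, receptors and adaptors, 3 fell and 2 rose at 8 wk. The death ligand Tnfsf10 (TRAIL) was lower by -0.69 ± 0.163 (SE; limma adjusted p = 0.00161), from 2.54 ± 0.625 TPM in mock (SD, n = 5) to 1.21 ± 0.596 in CAC (SD, n = 7). The adaptor Traf1 was lower by -0.59 ± 0.149 (adjusted p = 0.00315) and the receptor Tnfrsf19 by -0.36 ± 0.088 (adjusted p = 0.00238). The death receptor Fas rose by 0.72 ± 0.167 (adjusted p = 0.00138), from 1.25 to 3.53 TPM in mock to 3.34 to 6.38 in CAC. The TNF receptor gene Tnfrsf1a rose at 8 wk by 0.29 (adjusted p = 0.01), and at 6 wk by 0.33 (adjusted p = 0.0431).

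In the Ly6/PLAUR family of Lypd2, 2 of 11 tested genes fell and 2 rose at 8 wk. Lynx1, a membrane-anchored modulator of nicotinic receptors, was lower by -0.18 ± 0.042 (SE; limma adjusted p = 0.00124), from 417 ± 21.5 TPM in mock (SD, n = 5) to 367 ± 14.6 in CAC (SD, n = 7). Lypd1 was lower by -0.17 ± 0.061 (adjusted p = 0.0358). Ly6c1 rose by 0.83 ± 0.103 (adjusted p = 1.22e-07) and Ly6c2 by 0.54 ± 0.131 (adjusted p = 0.0022), but these near-identical copies share reads and their separate values are uncertain. Among 25 short-chain dehydrogenases, the family of Dhrs2, Hsd17b11 rose by 0.30 ± 0.077 (adjusted p = 0.00348), and Dhrs1 (-0.15) and Dhrs13 (-0.23) were lower, with adjusted p of 0.00769 and 0.0254. Dhrs4 differed by -0.07 ± 0.054 (adjusted p = 0.372).

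Some of these calls at 8 wk were lost when 1 library was left out, and several of them whichever of many libraries it was. Without mock replicate 1 the limma adjusted p rose to 0.0581 for Lrp6, 0.0553 for Fzd8 and 0.0514 for Znrf3, and without mock replicate 3 to 0.0616 for Lrp6. Without CAC replicate 2 it rose to 0.0619 for Kremen1 and 0.0596 for Wnt9a, and without mock replicate 5 to 0.0951 and 0.0853. The Dhrs13 call did not hold in the refits without CAC replicate 1, CAC replicate 2, mock replicate 1 and mock replicate 3 (adjusted p from 0.053 to 0.0703). Bambi was lost in the refits that drop CAC library 2, 4, 6 or 7, or mock library 1, 2 or 4 (adjusted p from 0.0516 to 0.0849). Lypd1 was lost in the refits that drop CAC library 1, 2 or 6, or mock library 1, 2 or 3 (0.0644 to 0.159), and Maml2 in the refits that drop CAC library 2, 4 or 6, or mock library 1, 2, 3 or 4 (0.0525 to 0.13). A fit of the compared groups alone also lost the 8 wk calls of Fzd8, Znrf3, Kremen1, Wnt9a, Bambi, Maml2, Lypd1, Dhrs1 and Hsd17b11 (limma adjusted p from 0.059 to 0.141). Of all tested genes that fit called 487 lower and 1161 higher, against 1057 and 1933 in the fit of all groups.

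At 6 wk 5 of the 6 called genes were lost in refits that leave out 1 library. Fas was lost without each library but CAC replicate 4 (limma adjusted p from 0.0512 to 0.275), and Tnfrsf1a in the refits that drop CAC library 1, 2 or 5 or any mock library (0.0582 to 0.228). Wnt5a was lost in the refits that drop CAC library 1 or 2, or mock library 2, 3, 4 or 5 (0.0535 to 0.239). Hsd17b11 was lost in the refits that drop CAC library 1 or 2, or mock library 2, 3 or 5 (0.0582 to 0.168), and Ntrk2 in the refits that drop CAC library 1 or 2, or mock library 5 (0.0565 to 0.136). The Ly6c1 call was kept in each of the 10 refits that leave out 1 library. A fit of the compared groups alone called none of these 6 (adjusted p from 0.0758 to 0.228). That fit called 0 of all 14399 tested genes at 6 wk, so the loss is not particular to these genes.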

How the data were processed

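The authors deposited 1 table of TPM values per gene symbol for 62 cerebellum libraries. Per the labels' protocols, RNA was extracted with Trizol and libraries were made with a TruSeq stranded mRNA kit and sequenced on an Illumina NovaSeq. Per the submitters' processing notes the build was mm10. Which aligner, counting tool and annotation were used is not given in the sources used here. Every library sums to 1000000 TPM, so the depth per library is unknown, no counting interval can be given, and a rise of some genes lowers others by construction.

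A mean of at least 1 TPM over all libraries was required, which 14399 symbols met, and these were fitted as log2(TPM + 1) with limma 3.58.1 in R 4.3.3 (eBayes with intensity trend, 12 group means, 50 residual degrees of freedom). Two-sided p-values were adjusted by Benjamini-Hochberg within each of 16 comparisons over all tested genes, with a threshold of 0.05. Errors of log2 differences are SE and errors of TPM are SD. The script was tested on simulated data. The 6 genes, the pathway lists and the marker lists were chosen with earlier results of these data known. Text on the pathways names up to 4 genes per list with the smallest p among those called at 6 or 8 wk, and partners of each gene named whatever their values. Alternatives were an added 0.1 TPM, scaling by median of ratios, quantile normalization, no filter on low genes or one at a mean of 5 TPM, a fit of the compared groups alone, sample weights, a replicate block and leaving out each library. A gene pattern and a marker that the rules would name are not reported here.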

Additional observations from a re-analysis of the deposited data

Results flagged for a closer look

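In 7 of 72 sets (the 6 genes in the 12 groups) 1 library stood apart from the others of its group by Dixon's test at the 95% level, which chance does in about 1 of 20 sets. 4 of the 7 were replicate 3 of CAC at 8 wk: Sost at 6.10 TPM (the other 6 libraries at 0.363 to 1.95), Dlk2 at 3.98 (0.886 to 1.84), Ntf3 at 6.41 (2.55 to 3.92) and Dhrs2 at 1.51 (0.295 to 0.701). In CAC at 2 wk, replicate 5 had 6.76 TPM of Sost against 3.54 to 4.45 in the other 4. In mock at 2 wk, replicate 3 had 13.2 TPM of Cd70 against 7.89 to 9.03. In NCAC at 4 wk, replicate 1 had 2.52 TPM of Dhrs2 against 1.31 to 1.48.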

How the results depend on the processing

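The count of the 6 genes called between NCAC and mock, and for the slopes within mock and within NCAC, was 0 under each alternative run. The CAC minus mock log2 difference of the 6 genes at 8 wk was negative under each alternative run for each gene; a mean TPM of at least 5 leaves only Ntf3 and Cd70 tested. With an added 0.1 TPM it was -2.25 for Sost, -1.28 for Dlk2, -1.19 for Dhrs2 and -1.12 for Lypd2, as the smaller added value compresses low genes less.

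Of the related genes at 6 wk none fell and 6 rose. Median-of-ratios scaling gave 1 lower and 2 higher, quantile normalization 3 higher, and sample weights 2 lower. The compared groups alone gave 0 higher, in a fit that called 0 of all tested genes. Leaving out 1 library gave 0 to 1 lower and 1 to 8 higher. At 8 wk, where 14 fell, a mean TPM of at least 5 gave 7, as fewer genes are tested. The replicate block gave 9 there, and Lrp5, Fzd1 and Notum had an adjusted p of 0.0674, 0.0677 and 0.0502. Of 60 same-numbered pairs 16 had deviations correlated above 0.1 (median 0.028). The highest was 0.396, between CAC and NCAC replicate 1 at 2 wk. Libraries with different numbers were not compared, so whether the replicate numbers pair the samples cannot be decided. Genes near 0 changed sign at 8 wk: Lrp4 gave 0.0252 with the replicate block and -0.0751 to 0.0177 with 1 library left out, and Axin2 -0.113 to 0.00743; neither was called in any of these. The cause of the other moves was not tested. The unknown depth limits Lypd2 and Dhrs2 most.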
